A study of Homo sapiens with 12 samples.

Results

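The E2F transcription factors and the RB family of pocket proteins were followed at the RNA level in OE33, a cell line from a human esophageal adenocarcinoma. The members were the rows of the count table whose Ensembl IDs carry the symbols E2F1, E2F2, E2F3, E2F4, E2F6, E2F7, E2F8, RB1, RBL1 and RBL2, 10 of 57500 genes. All 10 were found once, all 10 had enough counts to be tested, and they were set apart by role into activator E2Fs, repressor E2Fs and pocket proteins. The study had 4 groups of 3 libraries, all of poly(A) RNA from OE33. In shAPE1, cells that had survived the exposure described next carried a stably transduced short hairpin RNA (shRNA) against APE1, the base excision repair endonuclease encoded by APEX1. In shCtrl, survivors of the same exposure carried a non-targeting shRNA instead. In rABS, the survivors carried no vector; for 15 days they had been given 20 minutes a day of a bile salt cocktail at 200 µM, acidified to pH 5.5. Parental cells were untreated. Groups shAPE1, shCtrl and rABS thus share the exposure and the survival of it, no mock-treated group was analysed here, and APE1 was targeted with a single labelled hairpin.

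E2F proteins bind DNA, mostly together with a DP partner, at genes needed for entry into and passage through S phase. E2F1, E2F2 and E2F3 are known as activators and are held in check by RB1. E2F4 acts mainly as a repressor with the pocket proteins RBL1 (p107) and RBL2 (p130), E2F6 represses without a pocket protein as part of a Polycomb complex, and E2F7 and E2F8 are atypical repressors that bind without a DP partner. Phosphorylation of the pocket proteins by cyclin-dependent kinases frees the activators, and E2F1, E2F2, E2F7, E2F8 and RBL1 are themselves known E2F target genes. Loss of RB1 control is common in cancer, and E2F activity marks proliferating epithelial tumour cells.

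By GENCODE 29 (GRCh38), E2F1 lies on chromosome 20, 33675683 to 33686404, E2F2 on chromosome 1, 23506430 to 23531220, and E2F3 on chromosome 6, 20401906 to 20493715. E2F4 lies on chromosome 16, 67192169 to 67198918, E2F6 on chromosome 2, 11444375 to 11466177, E2F7 on chromosome 12, 77021247 to 77065580, and E2F8 on chromosome 11, 19224063 to 19241620. RB1 lies on chromosome 13, 48303726 to 48599436, RBL1 on chromosome 20, 36996349 to 37095995, and RBL2 on chromosome 16, 53433977 to 53491649. All 10 are annotated as protein-coding.

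The promoters of the members carry, to different degrees, the sequence that E2F proteins bind, and those windows are shown because the 3 members with the largest rise after the exposure hold it. RefSeq promoter windows (GRCh38.p14, 250 bases before to 50 bases after a start) were matched by symbol for 9 of the 10 members; E2F8 had no entry. Both strands were searched for TTTCCCGC, TTTCGCGC, TTTGCCGC and TTTGGCGC, spellings of the E2F site that do not overlap each other in these windows. At least 1 match was present in 1164 of 35116 windows, or 3.31%. Among the members, E2F1, E2F2, E2F3 and RBL1 had a match. In E2F1, TTTGCCGC lay 33 bases before the start on the opposite strand and TTTGGCGC 20 bases before it. In RBL1, TTTCGCGC and TTTGGCGC lay 26 and 16 bases before the start. E2F2 had TTTGGCGC 42 bases before its start, and E2F3 had TTTCCCGC on the opposite strand, 53 bases before its start. A further E2F3 window, with a start 1708 bases from that of the gene in GENCODE 29, held no match. The windows of E2F4, E2F6, E2F7 and RBL2 held none of these spellings. Those of RBL2 had starts 494 and 1642 bases from that of the gene in GENCODE 29. The RB1 window was not read, since it lies 172724 bases from the start of the gene in GENCODE 29. The 120 bases before the start are given 5′ to 3′ in the direction of the gene, with capitals for the matched letters: E2F1 is chr20:33686386-33686505 (minus strand), E2F2 is chr1:23531234-23531353 (minus), E2F3 is chr6:20401759-20401878 (plus), RBL1 is chr20:37095998-37096117 (minus) and E2F7, shown as a repressor without a match, is chr12:77065570-77065689 (minus).
E2F1: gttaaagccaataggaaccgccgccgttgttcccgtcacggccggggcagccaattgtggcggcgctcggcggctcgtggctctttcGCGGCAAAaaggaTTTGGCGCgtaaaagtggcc
E2F2: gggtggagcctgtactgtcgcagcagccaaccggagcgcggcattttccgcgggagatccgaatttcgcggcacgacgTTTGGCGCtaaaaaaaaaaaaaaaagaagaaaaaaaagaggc
E2F3: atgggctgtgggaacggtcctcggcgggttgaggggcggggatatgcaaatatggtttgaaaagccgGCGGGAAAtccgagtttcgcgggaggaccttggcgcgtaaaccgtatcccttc
RBL1: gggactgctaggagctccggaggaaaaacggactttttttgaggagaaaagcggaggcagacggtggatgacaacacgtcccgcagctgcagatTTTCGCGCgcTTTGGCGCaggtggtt
E2F7: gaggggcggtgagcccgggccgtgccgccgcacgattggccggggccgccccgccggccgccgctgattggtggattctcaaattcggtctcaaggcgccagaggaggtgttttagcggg
A match describes the letters of a window and is not evidence of binding.

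Library totals ran from 15736087 to 23010377 counts, and a member had between 39 and 4237 counts in a library. The hairpin's target, APEX1, averaged 4.93 ± 0.819 CPM (counts scaled to library size) in shAPE1, 59.8 ± 2.92 in shCtrl, 82.1 ± 2.28 in rABS and 54.7 ± 1.99 in Parental (SD, n = 3 libraries each, here and below), in keeping with the labels. All 8 markers of the labelled epithelial type were expressed, with a summed level of 12200 to 12800 CPM in shAPE1, 13900 to 15300 in shCtrl, 13900 to 16500 in rABS and 15100 to 18500 in Parental. Of 6 fibroblast markers only COL1A1 was high enough to be tested and LUM had no count; their sum was 7.42 to 8.3 CPM in shAPE1, 9.48 to 10.0 in shCtrl, 3.53 to 4.22 in rABS and 20.9 to 27.1 in Parental. The 6 leukocyte markers summed to at most 12 CPM and the 4 endothelial markers to at most 0.826 CPM in any library. Mitochondrial genes took 3.13 to 4.22% of counts in shAPE1, 2.62 to 3.3% in shCtrl, 2.69 to 3.65% in rABS and 1.9 to 2.75% in Parental. The part of these differences in the results below was not tested. In bulk RNA, a change in the share of cells that are in S phase and a change in RNA per cell cannot be told apart.

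Survivors without a vector were first set beside untreated cells, to see how the family stood after the repeated exposure. RNA of 2 activators, E2F1 and E2F2, and of the pocket protein RBL1 was more than 5 times as abundant in rABS, E2F8 was 3.17-fold higher, and RBL2 was 1.97-fold lower. Of the 10 members, 8 rose and 2 fell (edgeR quasi-likelihood test, Benjamini-Hochberg adjusted p under 0.05). Among all 15805 genes tested, 59.8% were called in this comparison, 29.9% higher and 29.9% lower, so that a call alone does not set a member apart. The median log2 change was 0.49 over the members and -0.01 over all genes tested. Values of the 2 groups did not overlap for 9 of the 10 members, E2F7 being the exception, and for 63.1% of all genes tested.

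**Figure D1:**
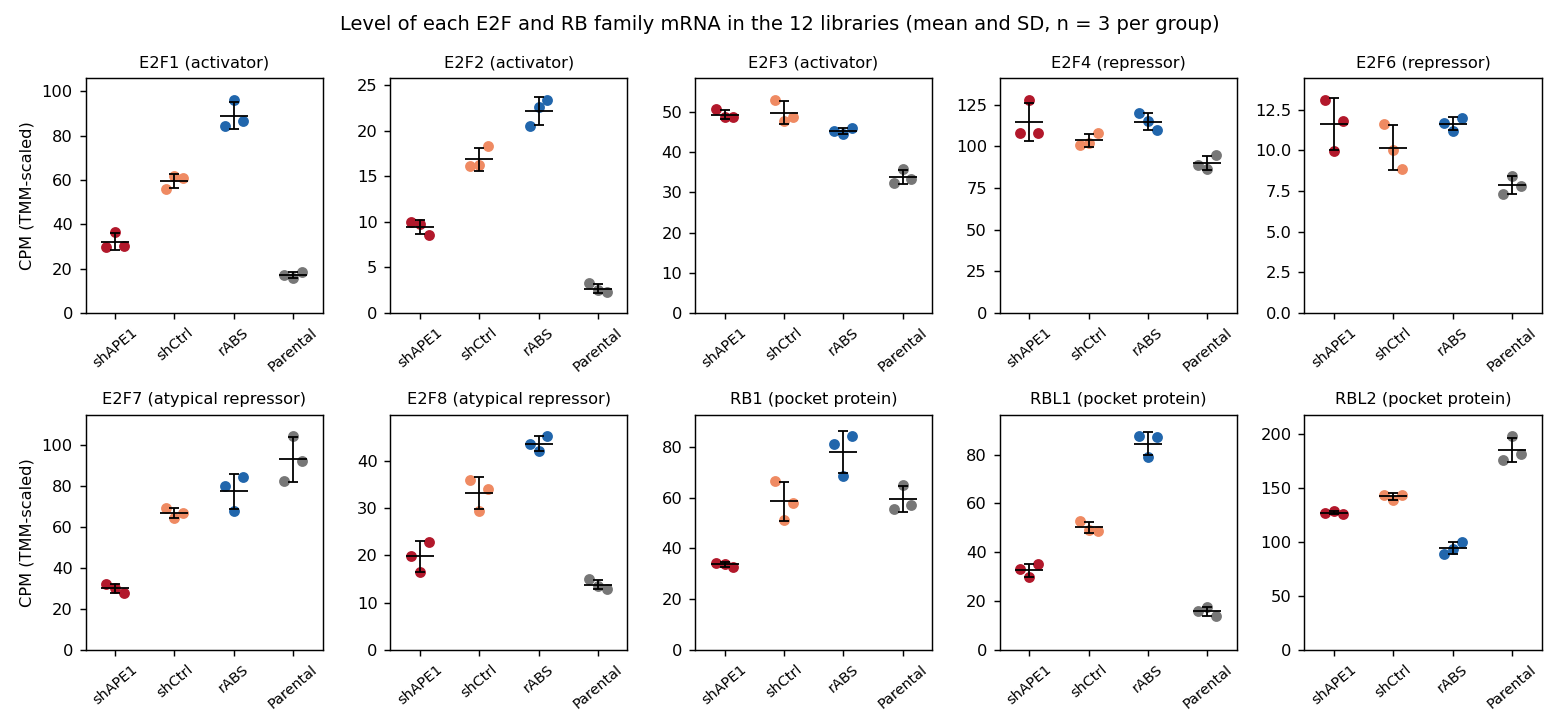
Level of each member in CPM (y axis, linear from 0, scaled per panel) in the libraries of shAPE1, shCtrl, rABS and Parental, with points for libraries and bars for the group mean ± SD (n = 3). E2F1, E2F2, E2F8 and RBL1 run highest in rABS and lowest in Parental, E2F7 and RB1 are lowest in shAPE1, and RBL2 is lowest in rABS.

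Among the activators, E2F1 was measured at 84.3, 96.2 and 86.8 CPM in rABS, against 17.3, 15.8 and 18.4 CPM in Parental. Every rABS library stood far above every Parental one, a 5.2-fold rise (log2 2.38 ± 0.10, standard error; edgeR adjusted p = 5.65e-20), and 98.5% of the genes tested had a lower log2 change. E2F2 had 20.5, 22.6 and 23.4 CPM in rABS and 3.25, 2.48 and 2.3 CPM in Parental. Its 8.36-fold rise (95% interval 6.8 to 10.3; edgeR adjusted p = 3.97e-18) was the largest of any member, with 99.4% of genes tested below it. E2F3, whose gene-level count pools its isoforms, had 45.2, 44.5 and 45.9 CPM in rABS and 32.3, 35.7 and 33.2 CPM in Parental. The groups of E2F3 were also apart, but by 1.34-fold (log2 0.42 ± 0.08; edgeR adjusted p = 4.76e-05), with 71.6% of genes tested below it.

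The 4 repressors moved unequally. E2F8, an atypical repressor, had 43.7, 42.1 and 45.2 CPM in rABS and 14.9, 13.6 and 12.9 CPM in Parental, a rise of 1.67 ± 0.11 on the log2 scale (edgeR adjusted p = 1.82e-14). E2F7, the other atypical repressor, had 79.7, 67.8 and 84.3 CPM in rABS and 82.1, 104 and 92.2 CPM in Parental. It alone of the E2Fs fell, by 0.27 ± 0.09 on the log2 scale (edgeR adjusted p = 0.00915), and the highest rABS library exceeded the lowest Parental one. That call rests on 2 libraries: without Parental replicate 2 the log2 change was -0.17 (edgeR adjusted p = 0.0974), and without rABS replicate 2 it was -0.18 (adjusted p = 0.101). E2F4, the main E2F of resting cells, had 119.9, 115 and 109.6 CPM in rABS and 89.1, 86.7 and 94.7 CPM in Parental, a 1.28-fold rise (edgeR adjusted p = 0.000137). E2F6, the Polycomb-associated member, had 11.7, 11.2 and 12 CPM in rABS and 7.34, 8.42 and 7.78 CPM in Parental, a 1.47-fold rise (edgeR adjusted p = 0.000748). For both genes the 3 rABS libraries stood above the 3 Parental ones.

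The pocket proteins differed from each other in direction. RBL1, which is produced mainly in cycling cells, had 87.4, 78.9 and 87.0 CPM in rABS and 15.7, 17.6 and 13.7 CPM in Parental, a 5.37-fold rise (log2 2.42 ± 0.10; edgeR adjusted p = 4.04e-20). RBL2, which is known as the prevalent pocket protein of quiescent cells, had 88.9, 93.3 and 100 CPM in rABS and 176, 198 and 182 CPM in Parental. Its level in rABS was 50.7% of that in Parental (log2 -0.98 ± 0.07; edgeR adjusted p = 6.35e-14), with no overlap. RB1, the retinoblastoma tumour suppressor, had 81.3, 68.5 and 84.1 CPM in rABS and 55.6, 65.1 and 57.1 CPM in Parental, a 1.31-fold rise (edgeR adjusted p = 0.000416) with groups that lay close but did not overlap. The exons of RBL2 overlap those of AKTIP, on the other strand, by 610 bases, and AKTIP had 6512 counts over the 12 libraries; since no source used here gives the strand setting, reads of the shared stretch cannot be told apart.

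The effect of the APE1 hairpin was read between shAPE1 and shCtrl, since a vector was present in both. E2F1, E2F2, E2F7, E2F8, RB1 and RBL1 fell, E2F7 the most, while E2F3, E2F4, E2F6 and RBL2 did not pass the test. No member rose, against 17.8% of all genes tested, and 6 of 10 fell, against 18.8%; together 36.6% of genes were called. The count of members called higher was 0 in edgeR, also at an unadjusted p under 0.05, and 0 in DESeq2 and limma-voom. With upper-quartile scaling E2F4 was also called, as higher (log2 0.19, edgeR adjusted p = 0.0417). The median log2 change was -0.68 over the members and -0.02 over all genes tested, and 7 of the 10 members had no overlap between the groups, as did 46.9% of all genes tested.

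E2F1 had 29.8, 36.7 and 30.2 CPM in shAPE1, against 55.9, 61.7 and 60.9 CPM in shCtrl. The shAPE1 level was 54.1% of that in shCtrl (log2 -0.89 ± 0.09; edgeR adjusted p = 1.91e-09). E2F2 had 10.0, 9.73 and 8.56 CPM in shAPE1 and 16.1, 16.2 and 18.3 CPM in shCtrl, which put shAPE1 at 56.2% (edgeR adjusted p = 1.86e-06). Both activators were lower in each shAPE1 library than in each shCtrl library. E2F3 behaved otherwise, with 50.6, 48.7 and 48.6 CPM in shAPE1 and 53.0, 47.8 and 48.6 CPM in shCtrl; the groups overlapped and the log2 change was -0.01 (95% interval -0.18 to 0.15; edgeR adjusted p = 0.921).

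E2F7 had 32.0, 30.3 and 27.6 CPM in shAPE1 and 69.2, 64.0 and 66.8 CPM in shCtrl. At 45.0% of the shCtrl level (log2 -1.15 ± 0.09; edgeR adjusted p = 1.19e-11) it was the member with the largest fall, and no shAPE1 library came near a shCtrl one. E2F8 had 19.9, 16.5 and 22.9 CPM in shAPE1 and 36.0, 29.4 and 34.1 CPM in shCtrl, or 59.6% (edgeR adjusted p = 1.18e-06). For E2F4 the values were 108, 128 and 108 CPM in shAPE1 and 101, 102 and 108 CPM in shCtrl. For E2F6 they were 13.1, 9.96 and 11.8 CPM in shAPE1 and 11.6, 10.0 and 8.86 CPM in shCtrl. Groups overlapped for both of these repressors, with log2 changes of 0.15 for E2F4 (95% interval -0.00 to 0.30; edgeR adjusted p = 0.121) and 0.20 for E2F6 (interval -0.07 to 0.47; adjusted p = 0.264).

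RB1 had 34.3, 33.9 and 32.7 CPM in shAPE1 and 66.5, 51.3 and 57.7 CPM in shCtrl, so that the shAPE1 libraries lay close together at 57.5% of the shCtrl level (log2 -0.80 ± 0.10; edgeR adjusted p = 3.99e-08). RBL1 had 32.9, 29.9 and 35.2 CPM in shAPE1 and 52.8, 48.9 and 48.7 CPM in shCtrl, or 65.1% (edgeR adjusted p = 1.62e-06). RBL2 had 127, 129 and 126 CPM in shAPE1 and 144, 139 and 144 CPM in shCtrl; the groups did not overlap, but the 1.12-fold difference missed the threshold (log2 -0.16, 95% interval -0.30 to -0.02; edgeR adjusted p = 0.0685).

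Members also differed between survivors with the control vector and survivors without one. In shCtrl against rABS, 5 members fell, 1 rose and 4 were not called, where 36.5% of all genes were called, 17.9% higher and 18.6% lower; groups did not overlap for 8 of the 10 members and for 48.4% of all genes. Those that fell were RBL1 (59.3% of the rABS level; edgeR adjusted p = 3.71e-08), E2F1 (66.8%; adjusted p = 2.95e-06), RB1 (74.9%; adjusted p = 0.000513), E2F8 (75.8%; adjusted p = 0.00242) and E2F2 (76.0%; adjusted p = 0.00666). RBL2 rose 1.51-fold (edgeR adjusted p = 3.03e-08). E2F7, at 86.2% of the rABS level, was just outside the threshold (adjusted p = 0.0558), and it was called under RLE scaling, in DESeq2, in a fit of the 6 libraries alone and without rABS replicate 2, with adjusted p between 0.0122 and 0.0433. Against rABS without a vector, shAPE1 had 6 members lower and 1 higher, where 23.8% of all genes were called higher and 26.2% lower, and 8 of the 10 members and 56.0% of all genes did not overlap. The falls ran from 1.15 (E2F8) to 1.47 (E2F1) on the log2 scale, and RBL2 was 0.44 ± 0.07 higher (edgeR adjusted p = 2.61e-06).

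Set against untreated cells, the members of shAPE1 parted into those still above and those below the Parental level. In shAPE1 against Parental all 10 were called, 7 higher and 3 lower, and none of the 10 overlapped between the groups. Of all genes tested, 53.7% were called, 26.2% higher and 27.5% lower, and 57.2% did not overlap. E2F2 was 3.57-fold, RBL1 2.08-fold, E2F1 1.88-fold and E2F8 1.43-fold higher in shAPE1 (edgeR adjusted p of at most 0.000286). E2F7 was at 32.3% of the Parental level (log2 -1.63 ± 0.09; edgeR adjusted p = 5.23e-16), RB1 at 56.6% (adjusted p = 8.8e-09) and RBL2 at 68.8% (adjusted p = 3.93e-08). RB1 in shCtrl, by contrast, was at 98.4% of the Parental level (log2 -0.02, 95% interval -0.21 to 0.16; edgeR adjusted p = 0.853). For shCtrl against Parental, 7 members were higher and 2 lower, where 53.1% of genes were called (27.0% higher and 26.1% lower), and 9 of the 10 members and 58.6% of all genes did not overlap. The calls of E2F4 (1.15-fold higher, edgeR adjusted p = 0.0236) and E2F6 (1.29-fold higher, adjusted p = 0.0271) there were each lost when any of 3 libraries was left out: Parental replicate 1, Parental replicate 2 or shCtrl replicate 3 for E2F4 (adjusted p 0.0645, 0.0777 and 0.106), and Parental replicate 1, Parental replicate 3 or shCtrl replicate 1 for E2F6 (adjusted p 0.0856, 0.0645 and 0.153). These comparisons share groups, so their values are not independent of each other.

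**Figure D2:**
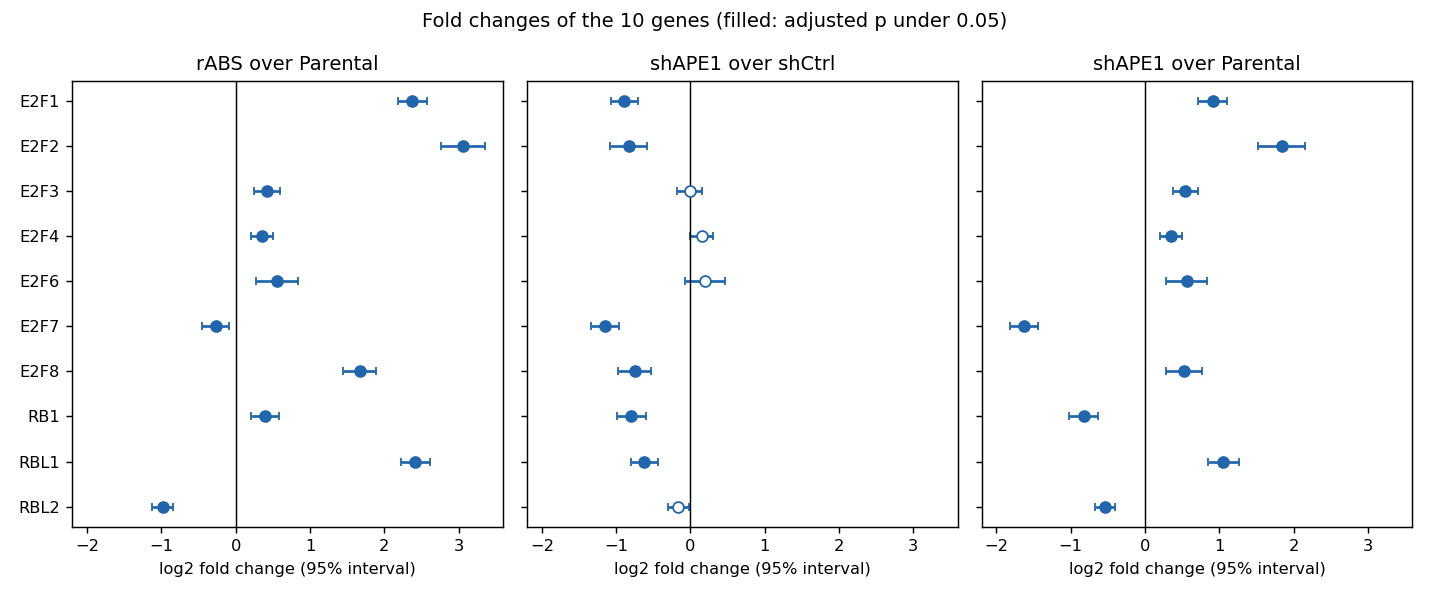
Log2 fold change of each member (x axis, log2; members down the page by role) with its 95% interval from the edgeR fit to 12 libraries, in 3 panels: the exposure (rABS over Parental), the APE1 hairpin (shAPE1 over shCtrl) and the hairpin-bearing survivors over untreated cells (shAPE1 over Parental); filled points passed adjusted p under 0.05. E2F2, RBL1 and E2F1 lie farthest right in the exposure panel, E2F7 lies farthest left in both panels with shAPE1, and E2F7, RB1 and RBL2 lie left of 0 in shAPE1 over Parental.

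Across the 4 groups, E2F1, E2F2, E2F8 and RBL1 had 1 order, rABS above shCtrl above shAPE1 above Parental, and each step of it passed the test in each of these 4 genes. In E2F3, shCtrl, shAPE1 and rABS averaged 49.8 ± 2.81, 49.3 ± 1.13 and 45.2 ± 0.718 CPM; these neighbours were not called, while rABS stood above the Parental mean of 33.7 ± 1.73 CPM. E2F4 and E2F6 likewise had 3 exposed groups that were not called against each other and lay above Parental. E2F7 ran from Parental down through rABS and shCtrl to shAPE1, where the step between rABS and shCtrl was not called. RB1 was highest in rABS and lowest in shAPE1, with Parental and shCtrl between them and not called. RBL2 was highest in Parental and lowest in rABS, with shCtrl and shAPE1 between them and not called.

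Levels of different genes were compared per kilobase of exon, with the union of all annotated exons of a gene as its length. The length of the transcripts expressed was not determined, so the order of different genes may depend on the length used. In Parental, RBL2 (25.3 ± 1.57 CPM per kb) and E2F4 (25.2 ± 1.14) had the highest levels, and E2F2 the lowest (0.491 ± 0.0927). In rABS the highest were E2F1 (35.6 ± 2.51 CPM per kb) and E2F4 (32.1 ± 1.44), whose SDs overlap. In shCtrl the order was led by E2F4 (28.9 ± 1.12 CPM per kb), then E2F1 (23.8 ± 1.25), and in shAPE1 by E2F4 (32.0 ± 3.17), then RBL2 (17.4 ± 0.191) and E2F1 (12.9 ± 1.56). Among the pocket proteins, RBL1, at 14.2 ± 0.807 CPM per kb in rABS, was near RBL2 (12.9 ± 0.76) and RB1 (12.1 ± 1.29) there, whereas in Parental it was the lowest of the 3, at 2.63 ± 0.328 CPM per kb.

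The balance of activator and repressor E2Fs was followed as the log2 ratio of their counts within a library, which no scaling of libraries can shift. Between rABS and Parental, 10 of 12 activator-to-repressor ratios were higher in rABS and 2 were lower, with differences from -1.24 to 3.3, and 11 of the 12 did not overlap. Between shAPE1 and shCtrl, 4 were higher in shAPE1 and 8 lower, from -1.08 to 1.14, and 7 did not overlap. The 12 ratios reuse 3 activators and 4 repressors, so they are not independent of each other. Among single genes, 63.1% did not overlap between rABS and Parental and 46.9% between shAPE1 and shCtrl. The share among ratios of other genes was not computed, so these counts do not set the E2Fs apart. Of the 8 lower in shAPE1, E2F1 to E2F8 (-0.14) and E2F2 to E2F8 (-0.08) turned sign without shAPE1 replicate 3, to 0.02 and 0.1. Exact permutation tests of 3 against 3 libraries cannot give a two-sided p below 0.1, which is 0.133 after adjustment over the 24 ratios tested, so no ratio could pass 0.05.

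The ratio of E2F1 to E2F7 set the exposed groups apart from Parental. It was 0.08, 0.5 and 0.04 on the log2 scale in rABS, against -2.24, -2.72 and -2.32 in Parental, a difference of 2.64 (6.22-fold; exact permutation p = 0.1, the smallest possible). In shAPE1 it was -0.1, 0.28 and 0.13, against -0.31, -0.05 and -0.13 in shCtrl; those groups overlapped and differed by 0.26 (exact permutation p = 0.2). E2F1 and E2F7 both fell with the APE1 hairpin, and no shAPE1 library had a ratio near those of Parental. The ratio of E2F1 to E2F4, by comparison, averaged -0.37 ± 0.13 in rABS and -2.39 ± 0.05 in Parental, and -1.83 ± 0.03 in shAPE1 and -0.8 ± 0.07 in shCtrl, so that it was 2.02 higher with the exposure and 1.03 lower with the hairpin on the log2 scale. The ratio of E2F3 to E2F7 was higher in both comparisons, by 0.69 in rABS over Parental and by 1.14 in shAPE1 over shCtrl. E2F3 to E2F8 turned round, with a difference of -1.24 in rABS over Parental and of 0.74 in shAPE1 over shCtrl, without overlap in either.

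**Figure D3:**
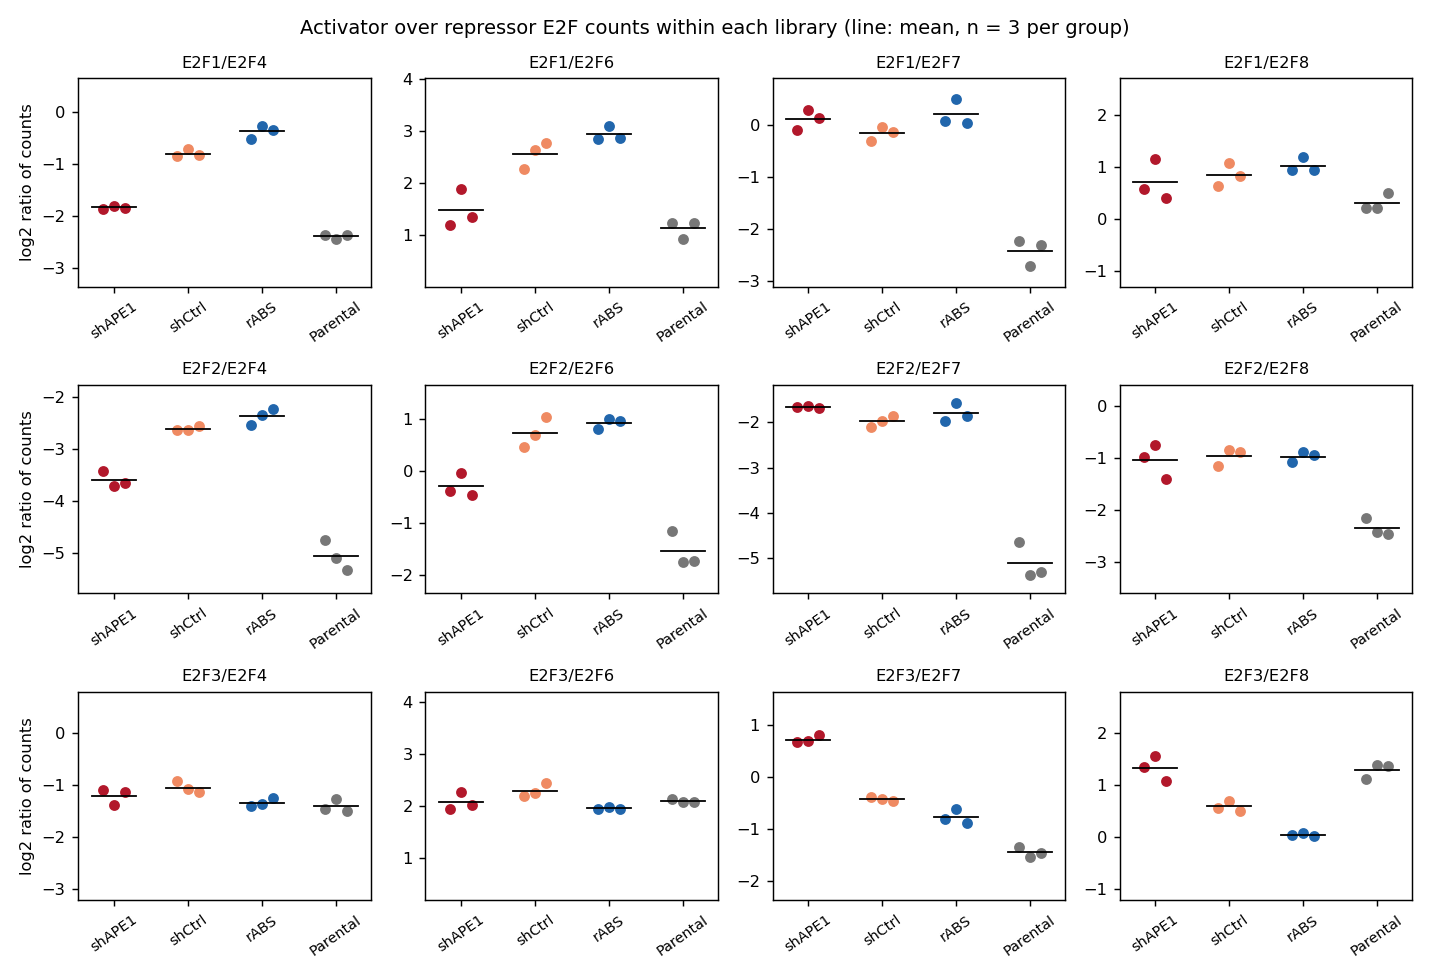
Log2 ratio of activator to repressor E2F counts (y axis, log2; no length correction, so heights compare groups and not genes) in each library of shAPE1, shCtrl, rABS and Parental, with points for libraries and bars for group means (n = 3). Ratios of E2F1 and E2F2 to E2F7 are lowest in Parental, and that of E2F3 to E2F7 is highest in shAPE1.

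The genes around the E2F and RB pathway were counted by role. For every list below, the background is the share of all genes tested. In rABS against Parental 29.9% were called higher and 29.9% lower, and in shAPE1 against shCtrl 17.8% and 18.8%. Dimerisation partners and the MuvB core, with the MuvB-binding factors MYBL2 and FOXM1, had 6 of 9 genes higher and none lower in rABS against Parental (median log2 0.77), and none higher and 5 lower in shAPE1 against shCtrl (median -0.21). TFDP1, the DP partner of most E2Fs, rose 2.93-fold in rABS, to 181 ± 7.69 CPM against 62.0 ± 1.91 CPM in Parental (edgeR adjusted p = 6.79e-19), followed by MYBL2 (2.74-fold), FOXM1 (1.96-fold) and the histone-binding RBBP4 (1.8-fold). LIN9, a subunit of MuvB, had the lowest adjusted p of the list in shAPE1 and fell to 8.24 ± 1.39 CPM against 15.0 ± 1.6 CPM in shCtrl (edgeR adjusted p = 2.95e-06).

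The cyclins, kinases and inhibitors that set the phosphorylation of the pocket proteins were split, with 7 higher and 6 lower of 15 tested in rABS against Parental (median log2 0.03), and 2 higher and 9 lower in shAPE1 against shCtrl (median -0.46). Of the 16 listed, CCND2 was too low to be tested. In rABS, the kinase inhibitor CDKN2B fell to 25.7 ± 2.3 CPM, against 110 ± 3.94 CPM in Parental (4.28-fold; edgeR adjusted p = 3.87e-20). The D-type cyclins CCND1 (2.4-fold) and CCND3 (2.89-fold) and the phosphatase CDC25A (6.03-fold), which activates cyclin-dependent kinases, rose there. In shAPE1, CDK6, a kinase of the pocket proteins, fell to 201 ± 6.75 CPM, against 525 ± 36.1 CPM in shCtrl (2.61-fold; edgeR adjusted p = 7.54e-15). CCND1 (1.45-fold), CCND3 (1.75-fold) and the inhibitor CDKN1C (2.72-fold) fell as well.

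Replication genes known as E2F targets at the G1/S boundary all moved with the exposure: 32 of 32 were higher in rABS than in Parental (median log2 1.77), and 31 of 32 were lower in shAPE1 than in shCtrl, with none higher (median -0.80). The exception was RRM2, with a log2 change of -0.10 (edgeR adjusted p = 0.288). MCM2, a subunit of the replicative helicase, averaged 331 ± 20.3 CPM in rABS and 41.7 ± 3.91 CPM in Parental (7.97-fold; edgeR adjusted p = 7.89e-25). It had the lowest adjusted p of the list, followed by PCNA (5.63-fold), MCM3 (5.69-fold) and UHRF1 (7.56-fold); the largest fold was that of MCM10 (12.7-fold), named after its value was seen. The DNA methyltransferase DNMT1 averaged 75.6 ± 6.1 CPM in shAPE1 and 183 ± 0.93 CPM in shCtrl (2.42-fold lower; edgeR adjusted p = 1.22e-15), followed in order of adjusted p by PCNA (2.21-fold), MCM2 (2.21-fold) and the licensing factor CDC6 (2.16-fold). Against Parental, shAPE1 still had 20 of the 32 higher, 5 lower and 7 not called (median log2 0.48). Of all genes tested, 26.2% were higher and 27.5% lower there. These genes are known to peak in S phase, and the share of cells in that phase was not measured here.

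Mitotic genes bound by MuvB and FOXM1 were counted in the same way. In rABS against Parental 11 of 20 were higher, 2 lower and 7 not called (median log2 0.26), and in shAPE1 against shCtrl 16 were lower and 1 higher (median -0.44). The checkpoint gene BUB1B (1.97-fold), the ubiquitin-conjugating enzyme UBE2C (1.76-fold) and CDK1 (1.67-fold) were higher in rABS and the checkpoint kinase BUB1 was lower (1.45-fold). The topoisomerase TOP2A (1.57-fold), BUB1B (1.47-fold), UBE2C (1.44-fold) and the anaphase activator CDC20 (1.37-fold) were lower in shAPE1.

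**Figure D4:**
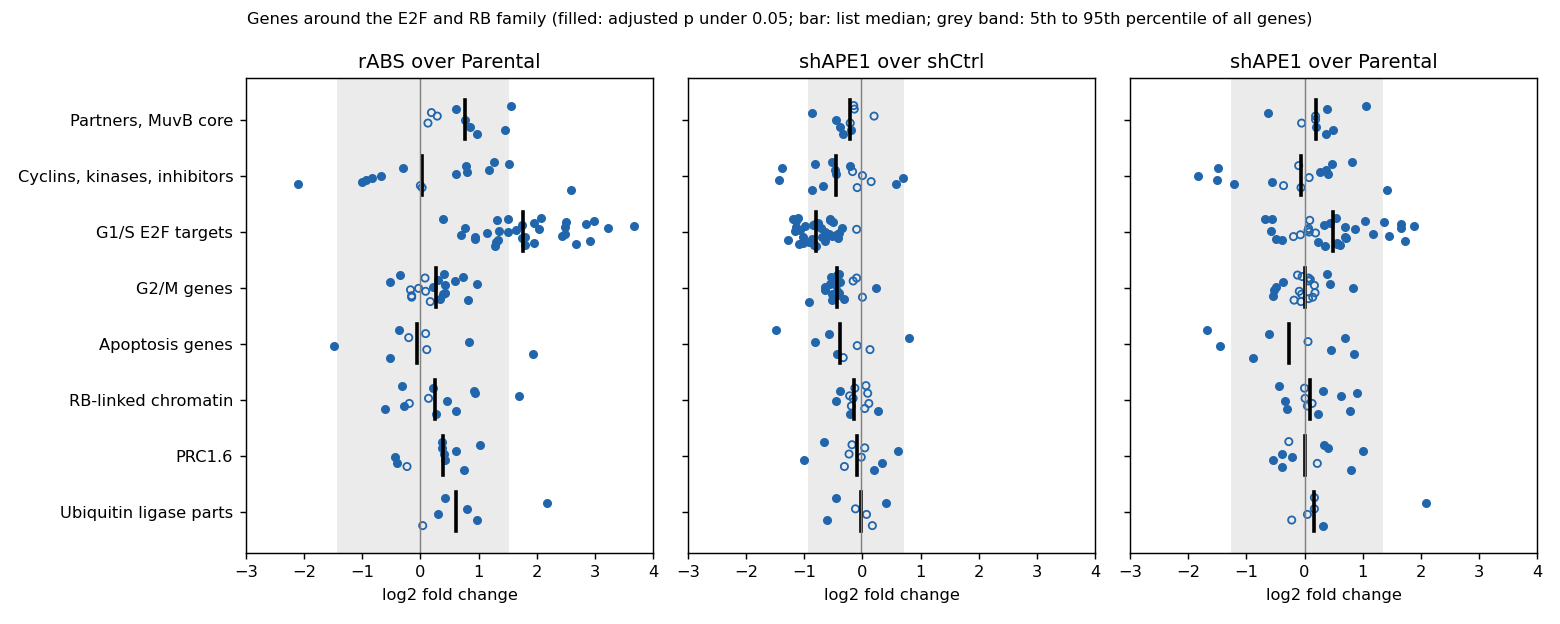
Log2 fold change (x axis) of the genes of 8 lists around the family, in panels for rABS over Parental, shAPE1 over shCtrl and shAPE1 over Parental; points are genes, filled where adjusted p was under 0.05, black bars are list medians and the grey band spans the 5th to 95th percentile of all genes tested. The G1/S targets lie right of 0 in the exposure panel (median 1.77), left of 0 in the hairpin panel (median -0.80) and on both sides of 0 in shAPE1 over Parental (median 0.48).

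The remaining lists were smaller and mixed. Of all genes tested, 29.9% were higher and 29.9% lower in rABS against Parental, and 17.8% and 18.8% in shAPE1 against shCtrl. Counts near these shares do not set a list apart. Of 8 apoptosis genes tied to E2F1, 2 rose and 3 fell in rABS against Parental (median log2 -0.05); TP73, the p53 relative, rose 3.81-fold and the BH3-only gene BBC3 fell 2.8-fold. In shAPE1 against shCtrl 1 rose and 4 fell (median -0.38), among them APAF1, the apoptosome scaffold, at 16.1 ± 2.08 CPM in shAPE1 and 45.3 ± 2.24 CPM in shCtrl (2.81-fold lower; edgeR adjusted p = 1.16e-13). Chromatin proteins that bind RB had 7 of 12 higher and 3 lower in rABS (median 0.24), led by EZH2, the H3K27 methyltransferase (3.25-fold), and 1 higher and 3 lower in shAPE1 (median -0.15). Partners of E2F6 in its Polycomb complex had 7 of 10 higher and 2 lower in rABS (median 0.39), led by L3MBTL2 (2.04-fold), and 3 higher and 2 lower in shAPE1 (median -0.10), where the chromodomain protein CBX3 fell 2.02-fold. Of 6 germline genes that E2F6 helps to silence, as known from mouse, STAG3 alone was high enough to be tested. It was called neither in rABS against Parental nor in shAPE1 against shCtrl. Both groups with a vector were called higher than those without. The log2 change of shCtrl was 0.66 over rABS and 1.04 over Parental, and that of shAPE1 was 0.46 and 0.84. STAG3 averaged 7.38 ± 1.05 CPM in shAPE1, 8.44 ± 0.998 in shCtrl, 5.38 ± 0.596 in rABS and 4.07 ± 0.712 in Parental. Ubiquitin ligase parts and regulators tied to E2Fs had 5 of 6 higher and none lower in rABS (median 0.61), led by SKP2 (4.51-fold). In shAPE1 1 was higher and 2 were lower (median -0.03). The gene that rose there was SKP2 (1.33-fold, edgeR adjusted p = 0.00116). The list mixes ligase parts with regulators of them, so its counts have no single functional sense.

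The genes whose pattern over the 12 libraries was most like that of a member were found by the root mean square difference of log2 CPM, each gene centred on its own mean, among 10511 genes of at least 5 CPM. For E2F1 they were NTSR1 (0.14), MCM4 (0.151), POLA2 (0.161), RFC2 (0.168) and TONSL (0.171). For E2F8 they were ORC6 (0.127), CHEK1 (0.127), DDX11 (0.13), EBNA1BP2 (0.132) and DSCC1 (0.135). For RB1 they were LCLAT1 (0.074), SSR1 (0.117), ENSG00000247844 (0.12), LEMD3 (0.125) and ING3 (0.129). These likenesses are descriptions over libraries that share 4 groups.

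The members' places in the genome differed in what surrounded them. Over all genes tested, 29.9% were higher and 29.9% lower in rABS against Parental, and 17.8% and 18.8% in shAPE1 against shCtrl. The 20 tested genes next to E2F7 (10 on each side, GRCh38 chromosome 12, 75689152 to 83134870) had 1 gene higher and 13 lower in rABS against Parental, with a median log2 change of -0.54 against -0.01 over all genes, while E2F7 itself changed by -0.27. In shAPE1 against shCtrl, where E2F7 changed by -1.15, these neighbours had 1 higher and 4 lower and a median of -0.09. The neighbours of E2F1 on chromosome 20 had 3 higher and 9 lower in rABS (median -0.47), opposite to the rise of E2F1. Around RBL1, also on chromosome 20, 11 were higher and 4 lower (median 0.33). With 5 genes on each side the medians were -0.54 for E2F7, -0.63 for E2F1 and -0.14 for RBL1, so that the sign around RBL1 depended on the window. The neighbours of the other 7 members had medians between -0.13 and 0.22 in rABS against Parental. In shAPE1 against shCtrl, medians over 10 genes on each side ran from -0.33 around RBL2 to 0.21 around E2F2. Of the 20 genes, 2 were higher and 8 lower around RBL2, and 7 higher and 4 lower around E2F2. Around E2F8, 1 was higher and 7 were lower (median -0.19).

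Promoter matches were also read across all genes. Among tested genes with an E2F spelling in a RefSeq window, 43.9% of 717 were higher and 25.9% lower in rABS against Parental (median log2 0.17), compared with 32.0% and 32.6% of 10330 genes without one (median -0.01). In shAPE1 against shCtrl, 15.9% of the genes with a match were higher and 31.4% lower (median -0.13), compared with 20.4% and 20.5% without (median -0.01). The 4 members with a match rose in rABS, by 0.42 (E2F3) to 3.06 (E2F2) on the log2 scale. E2F4, E2F6, E2F7 and RBL2, without a match, had log2 changes from -0.98 to 0.56 there. Of these, E2F4 (0.35) and E2F6 (0.56) were also called higher, and E2F6 rose more than E2F3. In shAPE1 against shCtrl, 3 members with a match fell, but E2F7, without one, fell the most (-1.15). Members with and without a match thus occurred among those called higher in rABS, and among those called lower in shAPE1. E2F8, which had no window, and RB1, whose window was not read, are not counted here. The part of the matches in these changes was not tested.

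The 3′ untranslated regions of the members were searched for 3 overlapping 7-mers: the sequence TGCATTC, the sequence GCATTCT that begins within it, and the sequence CTGCATT that ends within it. These had been picked from the fold changes of shAPE1 against shCtrl in the same libraries, so their presence supports nothing about the direction of a member; the sites are shown because E2F7, which had the largest fall, and RB1 carry them. E2F7 had 1 GCATTCT and 2 CTGCATT, RB1 had 1 CTGCATT and RBL2 had 1 TGCATTC, and the other 7 members had none, among them E2F1, E2F2, E2F8 and RBL1, which fell too. Of all genes searched, 30.8% held at least 1 of the 3, and their median 3′ untranslated region was 3000 bases long, against 1209 bases for the rest. In shAPE1 against shCtrl, 35.2% of the carriers were lower and 15.2% higher (median log2 -0.14), compared with 15.8% lower and 24.0% higher among the 8675 genes without (median 0.04). Because the choice of sequences already rested on that comparison, this split was built in. It describes the choice and is not a test of the sites. The part of these sites in the members' changes was not tested. The sites are given with the 7-mer in capitals, from GENCODE 29 transcripts (GRCh38), at chr12:77023659-77023681, chr12:77023154-77023176 and chr12:77022113-77022135 (minus strand) for E2F7, chr13:48481315-48481337 (plus) for RB1 and chr16:53490756-53490778 (plus) for RBL2.
E2F7, first site: tagggtaaGCATTCTtaacatgt
E2F7, next site: tacatgccCTGCATTttttattt
E2F7, last site: ggagaggtCTGCATTtagacgga
RB1: taaaacagCTGCATTagaaaaag
RBL2: tgatttttTGCATTCctgacaaa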

How the data were processed

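Poly(A) RNA of 12 OE33 libraries, 3 per group, was sequenced. The authors deposited whole-number read counts for each Ensembl gene, with no normalization. Per the submitters' processing notes, the tools were Trimmomatic 0.36, STAR 2.5.2b and featureCounts of Subread 1.5.2, with GRCh38. No source used here gives the annotation release, whether strand was used, or how reads with several places were counted. Of the 57500 gene IDs, 56410 were named and 56898 placed with GENCODE 29.

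Genes were filtered with filterByExpr of edgeR 4.0.16 (minimum count 10, minimum total count 15, 15805 kept), libraries were scaled with TMM, and 1 robust quasi-likelihood fit with a term per group used all 12 libraries (R 4.3.3, limma 3.58.1). P-values were adjusted by Benjamini-Hochberg over all genes tested of a comparison and called under 0.05. CPM use scaled library sizes; marker sums alone use raw totals. Log2 CPM had a prior count of 2. Ratios of counts within a library had a pseudocount of 1 and exact two-sided permutation tests (scipy 1.17.1). The study describes its replicates as independent. The procedure was tested on simulated counts of rABS against Parental. It recovered 74% of 50 genes changed 1.5-fold, 93% of 100 changed 2-fold and 96% of 50 changed 4-fold. Of 188 calls, 10 were false. Far fewer genes were changed there than the 59.8% called in the data, so the simulation does not test the scaling. Precision depends on depth, from 39 counts upward for a member, and on the spread between libraries. The chi-square per gene between replicates of a group, near 1 under counting noise alone, ran from 2.91 to 11.55.

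The members and the 9 gene lists were chosen with earlier results of these data known. Named genes were all members, APEX1, up to 4 genes per list with the lowest adjusted p in the comparison described, and the 5 genes most like E2F1, E2F8 and RB1; RRM2 and MCM10 were named after their values were seen, as extremes of their list. Of the genes this rule names, 1 is not reported here. Promoter windows came from RefSeq, and the longest 3′ untranslated region of each gene (at least 50 bases) from GENCODE 29. Alternatives were RLE and upper-quartile scaling, DESeq2 1.42.0, limma-voom, no filter and a stricter one (1 CPM in 6 libraries), the 6 libraries of a comparison alone, a replicate block, and leaving out each library.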

Additional observations from a re-analysis of the deposited data

How the results depend on the processing

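Of 840 member fold changes recomputed, 805 kept their direction and their side of the threshold, 5 became called, 10 were lost and 20 changed sign; the 15 that became called or were lost were in E2F4, E2F6 or E2F7. The 20 changes of sign were near 0 and not called before or after. E2F3 in shAPE1 against shCtrl was 0.01 with RLE scaling and in DESeq2, 0.03 with upper-quartile scaling, 0.0 in the 6 libraries alone and -0.05 to 0.03 with 1 library left out. In shAPE1 against rABS, E2F4 was 0.01 with RLE, 0.06 with upper-quartile scaling, 0.02 with the stricter filter and in the 6 libraries alone, and -0.09 to 0.03 with 1 library left out. E2F6 there was -0.01 without a filter and in limma-voom, -0.0 with a replicate block, and -0.1 to 0.1 with 1 library left out. RB1 in shCtrl against Parental was -0.12 to 0.07 with 1 library left out. Of 192 recomputed ratios 2 changed sign, both in shAPE1 against shCtrl: with 1 library left out, E2F1 to E2F8 ran from -0.36 to 0.02 and E2F2 to E2F8 from -0.23 to 0.1. With upper-quartile scaling, 1 member (E2F4) was called higher in shAPE1 against shCtrl, where 0 were with TMM. Leaving out 1 library at a time, the members called lower in rABS against Parental ranged from 1 to 2, because E2F7 was lost without Parental replicate 2 or rABS replicate 2. In shCtrl against Parental, E2F6 was also lost without a filter (edgeR adjusted p = 0.055) and in DESeq2 (adjusted p = 0.0632); the cause was not tested. Counts of the gene lists stayed within 1.5 times in 1454 of 1512 cases. The replicate numbers did not pair the libraries: correlations of same-numbered deviations ran from -0.167 to 0.109. A replicate block left 8 members higher and 2 lower in rABS against Parental, and 0 higher and 6 lower in shAPE1 against shCtrl. Depth limits E2F2 in Parental most, with 39 counts in its lowest library.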
